A study of Mus musculus with 4 samples.

Results

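The comparison described here sets colony-forming cells grown from CreER-transduced short-term haematopoietic stem cells (ST-HSC) against those grown from mock-transduced ST-HSC. Each side is 1 Affymetrix gene array, so 2 of the 4 arrays of the series were compared, over 19938 genes named by a probe set with a single gene symbol. The remaining 2 arrays, from long-term stem cells (LT-HSC) with mock or CreER, served as a yardstick for placing each ST-HSC array. They come from another stem cell population, so the placing cannot tell which ST-HSC array a difference came from. The mice were of C57BL/6 background, and the series title speaks of conditional MLL-ENL expression without saying which of the 4 groups expressed it. The design text describes the arrays as a starting search for genes that take part in leukaemic transformation. Colonies grew in methylcellulose with serum and the cytokines GM-CSF, IL-6, IL-3 and SCF. The label of the stem cells names the starting population, not the cells that were measured: the RNA came from their colony progeny. The age and number of animals, whether cells were pooled, and whether a ligand switched CreER on are not stated in the sources at hand. A CreER minus mock difference is therefore a difference between transductions.

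MLL-ENL joins the histone methyltransferase MLL (Kmt2a) to ENL (Mllt1), a protein of transcription elongation complexes, and is known for holding HoxA and Meis1 genes active in leukaemia. In CreER the recombinase Cre carries the hormone-binding domain of the oestrogen receptor, so that it stays out of the nucleus until a ligand such as tamoxifen binds. The cytokines of these cultures carry progenitors towards neutrophils, macrophages, mast cells, basophils and eosinophils. Neutrophils load their granules in order, primary granules at the promyelocyte stage, secondary granules in myelocytes and tertiary granules later, before surface receptors such as CXCR2 appear. In RNA from a mixed culture, fewer cells of a type and less RNA per cell cannot be told apart.

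Differences are log2 values, CreER minus mock, of the 2 ST-HSC arrays. With 1 array a side none has a replicate check or a test, so precision is limited throughout by how few arrays there are. A gene was counted when it differed at least 2-fold, a log2 difference of 1, and, on whichever array was higher, stood above a signal floor. That floor is the median of an array over its probe sets with 1 symbol, which was 8.08 on ST-HSC mock and 8.07 on ST-HSC CreER. An array was said to set a gene apart alone when it lay outside the range of the other 3 arrays by more than that range. As a scale for these values, 95% of the 10047 genes past the floor had differences between -0.37 and 0.43, with a median of -0.03. Olfactory receptor genes, mostly silent in blood cells, had an SD of 0.20 over 1027 genes. Of these, 7 were past the floor, so the SD is a single-gene scale near background and not a replicate error. Among 600 genes with several probe sets past the floor, the differences of a gene's own probe sets spread by a median of 0.05.

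Among defining markers, 10 of 10 for neutrophils stood above the floor on both ST-HSC arrays, with median levels of 13.70 with mock and 13.83 with CreER. Macrophage markers were above it for 6 of 8 on each array, eosinophil markers for 5 of 7, and mast cell and basophil markers for 5 of 10 with mock and 7 of 10 with CreER. Of the markers of monocytes, 5 of 5 measured stood above it with mock and 4 with CreER, and of progenitors 4 of 5 with mock and 5 with CreER. Erythroid, B cell and T cell markers stood under it on both arrays, for 3, 2 and 2 measured. Of 4 stromal markers 2 were above it. The stem and progenitor marker Cd34 was under the floor with mock, at 7.87, and above it with CreER, at 8.60.

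The genes that differed were few and mostly higher with CreER. Of 10047 genes past the floor, 44 were at least 2-fold higher (0.438%) and 8 at least 2-fold lower (0.0796%), together 0.518%. Of the 44 higher genes, 8 are on the lists of neutrophil granule and late neutrophil genes and 4 on that of eosinophil granules. Another 4 are on those of mast cells and basophils, while 28 are on none of these. The neutrophil lists have 20, 20 and 41 measured genes and the eosinophil granule list 7. Those of mast cells and basophils have 13, 14, 19 and 10. The lists were chosen with earlier results of these data known, so the counts describe the genes only. The lower ones include 1 gene of the monocyte list, F13a1, 1 of the heat shock list, Hspa1a, and genes of inflammatory signalling. Placed beside the LT-HSC arrays, the CreER array stood apart in some genes and the mock array in others. Among the 44 higher genes, the mock array alone was set apart, low, in 16. The CreER array alone was set apart, high, in 15, and neither alone in 13. In 8 of the 16 set apart by mock, ST-HSC CreER also lay below both LT-HSC arrays, in 5 above both and in 3 between them. Of the 8 lower genes, the mock array alone was set apart, high, in 4, the CreER array alone in 0 and neither in 4.

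**Figure D1:**
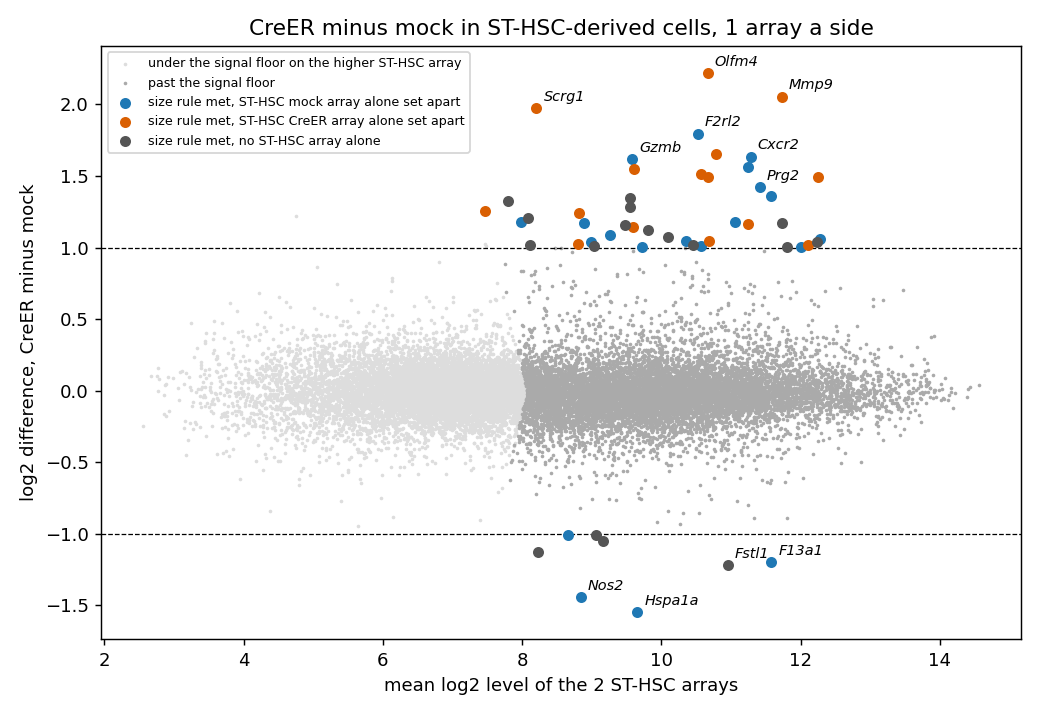
Each point is a gene, with the mean log2 level of the 2 ST-HSC arrays on the x axis and the log2 difference CreER minus mock on the y axis; dashed lines mark 2-fold. The 44 higher and 8 lower genes are coloured by the ST-HSC array that was set apart alone, and Olfm4 at 2.22 and Hspa1a at -1.55 are the extremes.

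Because the genes were counted for a large distance between these 2 arrays, each of the 2 had to be extreme more often than usual. For comparison, over all 10047 genes past the floor the ST-HSC mock array was set apart low in 304 (3.03%) and high in 509 (5.07%), and the ST-HSC CreER array high in 459 (4.57%) and low in 480 (4.78%). The ST-HSC mock array was the lowest of the 4 in 34 of the 44 higher genes, against 15.6% of genes past the floor. The ST-HSC CreER array was the highest of the 4 in 27, against 24.2%, and 17 genes had both. Nothing beyond the placing of the arrays is read from these shares.

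The upstream sequence of 4 counted genes is shown because each stands for a different group below: Olfm4 for the neutrophil genes set apart by the CreER array, Retnlg for the neutrophil genes set apart by the mock array, Cpa3 for the mast cell genes and Hspa1a for the genes lower with CreER. The sequences are the 250 bases before the start of each gene in RefSeq, build GRCm38.p6, 5′ to 3′ on the gene's strand, with a motif match in capitals. Olfm4 is at chr14:80000052-80000301 on the plus strand, and its capitals mark the NF-kB letters, GGGA and CC with any 4 bases between them. Retnlg is at chr16:48872358-48872607 on the plus strand, with TTGCNNAA, the C/EBP letters, marked on the opposite strand. Cpa3 is at chr3:20242182-20242431 on the minus strand, with AGATAA, the GATA letters, marked. Hspa1a is at chr17:34972157-34972406 on the minus strand, with GAANNTTC, the heat shock element letters, marked.
Olfm4: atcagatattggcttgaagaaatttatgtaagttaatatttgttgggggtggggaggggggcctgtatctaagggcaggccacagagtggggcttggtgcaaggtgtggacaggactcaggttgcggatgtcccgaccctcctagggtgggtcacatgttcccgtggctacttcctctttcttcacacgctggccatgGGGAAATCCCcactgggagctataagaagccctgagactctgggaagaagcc
Retnlg: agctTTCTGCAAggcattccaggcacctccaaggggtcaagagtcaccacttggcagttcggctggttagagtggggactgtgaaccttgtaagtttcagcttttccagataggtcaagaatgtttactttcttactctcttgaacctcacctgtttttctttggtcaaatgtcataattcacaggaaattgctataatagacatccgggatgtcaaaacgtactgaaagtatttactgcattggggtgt
Cpa3: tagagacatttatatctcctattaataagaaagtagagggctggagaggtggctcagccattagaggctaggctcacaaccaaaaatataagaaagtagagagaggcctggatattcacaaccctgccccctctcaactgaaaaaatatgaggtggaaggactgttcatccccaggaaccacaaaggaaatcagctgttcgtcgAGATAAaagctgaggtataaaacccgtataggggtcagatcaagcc
Hspa1a: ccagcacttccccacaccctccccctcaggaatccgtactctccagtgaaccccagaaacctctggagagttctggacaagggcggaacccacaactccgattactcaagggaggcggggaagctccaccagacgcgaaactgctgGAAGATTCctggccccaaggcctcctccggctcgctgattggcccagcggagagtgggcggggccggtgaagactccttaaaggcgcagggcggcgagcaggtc

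These motifs were searched on both strands of 32851 promoter windows of that length, some overlapping where a gene has several starts. The GATA letters occurred in 9.99% of windows, the C/EBP letters in 9.56%, the heat shock letters in 6.69% and the NF-kB letters in 17.6%. Of the 52 counted genes, 42 had a window. Of these, 7 held the GATA letters, 4 the C/EBP letters, 4 the heat shock letters and 12 the NF-kB letters. The shares are of windows and the counts are of genes, so they are unlike in unit and a difference between them was not tested. The 7 with GATA letters were Cpa3, F2rl2, Fcer1a, Ipcef1, Mgam, Serpinb10 and Stfa3. The mast cell genes Cpa3 and Fcer1a are thus among them, and the counted mast cell and basophil genes Gzmb and Tph1 are not. Fcer1a, which encodes the alpha chain of the high-affinity IgE receptor, also held the C/EBP letters. A match describes letters in a window and is not a measured site.

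The genes set apart by the CreER array were led by neutrophil granule genes. Olfm4, olfactomedin 4 of secondary granules, stood at 11.77 on ST-HSC CreER and 9.55 on ST-HSC mock, with LT-HSC mock at 9.73 and LT-HSC CreER at 10.66. It was 4.66-fold higher with CreER, the largest difference of the comparison, and its placing was borderline: the gap of the CreER array and the range of the other 3 both rounded to 1.11, and no array stood alone under quantile or cyclic loess normalization. Mmp9, gelatinase B of tertiary granules, was at 12.75 on ST-HSC CreER. It was at 10.70 on ST-HSC mock and at 11.28 and 11.32 on the mock and CreER arrays of LT-HSC, a 4.15-fold difference between the ST-HSC arrays. The other 3 arrays lay within 0.63 of each other and the CreER array 1.43 above them.

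Ceacam10, a secreted member of the CEA family found in granulocytes, was 12.99 on ST-HSC CreER and between 11.23 and 11.66 on the other 3. Asprv1, an aspartic protease, was 12.61 against 11.60 with mock, and Plbd1, a phospholipase B-like granule protein, 11.83 against 10.66. Trpm2, a calcium channel opened by ADP-ribose, was 9.32 against 8.30. In each of these 4 genes ST-HSC mock lay between the LT-HSC arrays.

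Schlafen genes, which are linked to growth arrest in lymphocytes and myeloid cells, divided within the family. Slfn1 was 11.60 on ST-HSC CreER, while the other 3 arrays lay between 9.93 and 10.04, a range of 0.12 against a gap of 1.56. Slfn4 was 11.33 on ST-HSC CreER, 9.82 on ST-HSC mock, 9.80 and 10.56 on the mock and CreER arrays of LT-HSC, so its placing was also borderline, with gap and range both near 0.77, and it too was lost under those normalizations. Slfn2 and Slfn3 were higher by 0.20 and 0.29, each highest on ST-HSC CreER. Slfn5, Slfn8, Slfn9 and Slfn10-ps differed the other way, by -0.49, -0.32, -0.22 and -0.40. These genes lie in a family of similar sequences, so a probe set may read more than its named member.

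The remaining genes set apart by the CreER array had no common role. Scrg1, a small secreted protein gene first linked to prion disease, was 9.19 on ST-HSC CreER and between 6.57 and 7.32 elsewhere, under the floor there, so its 3.93-fold difference has an uncertain size. Gja5, which encodes the gap junction protein connexin 40, was 10.38 against 8.84 with mock. Ipcef1, a partner of cytohesin exchange factors, was 10.17 against 9.02. Chil5, a chitinase-like gene, was 8.09 against 6.84, just over the floor on the CreER array alone. Ifit1bl2, of the interferon-induced IFIT family, was 9.44 with the other 3 arrays between 8.20 and 8.29. The clone-named genes A530064D06Rik and 9830107B12Rik were higher by 1.49 and 1.05. With CreER in LT-HSC-derived cells, 14 of these 15 genes also differed upwards, with a median of 0.40 and a range of -0.09 to 0.93. None of the 15 reached 2-fold there. Over all 19938 genes, floor or not, 11756 were above 0 in LT-HSC-derived cells, at a median of 0.04. Genes past the floor in ST-HSC, as these 15 are, had a median of -0.02 there. The LT-HSC arrays entered the placing of the genes, so these counts are given as a description.

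**Figure D2:**
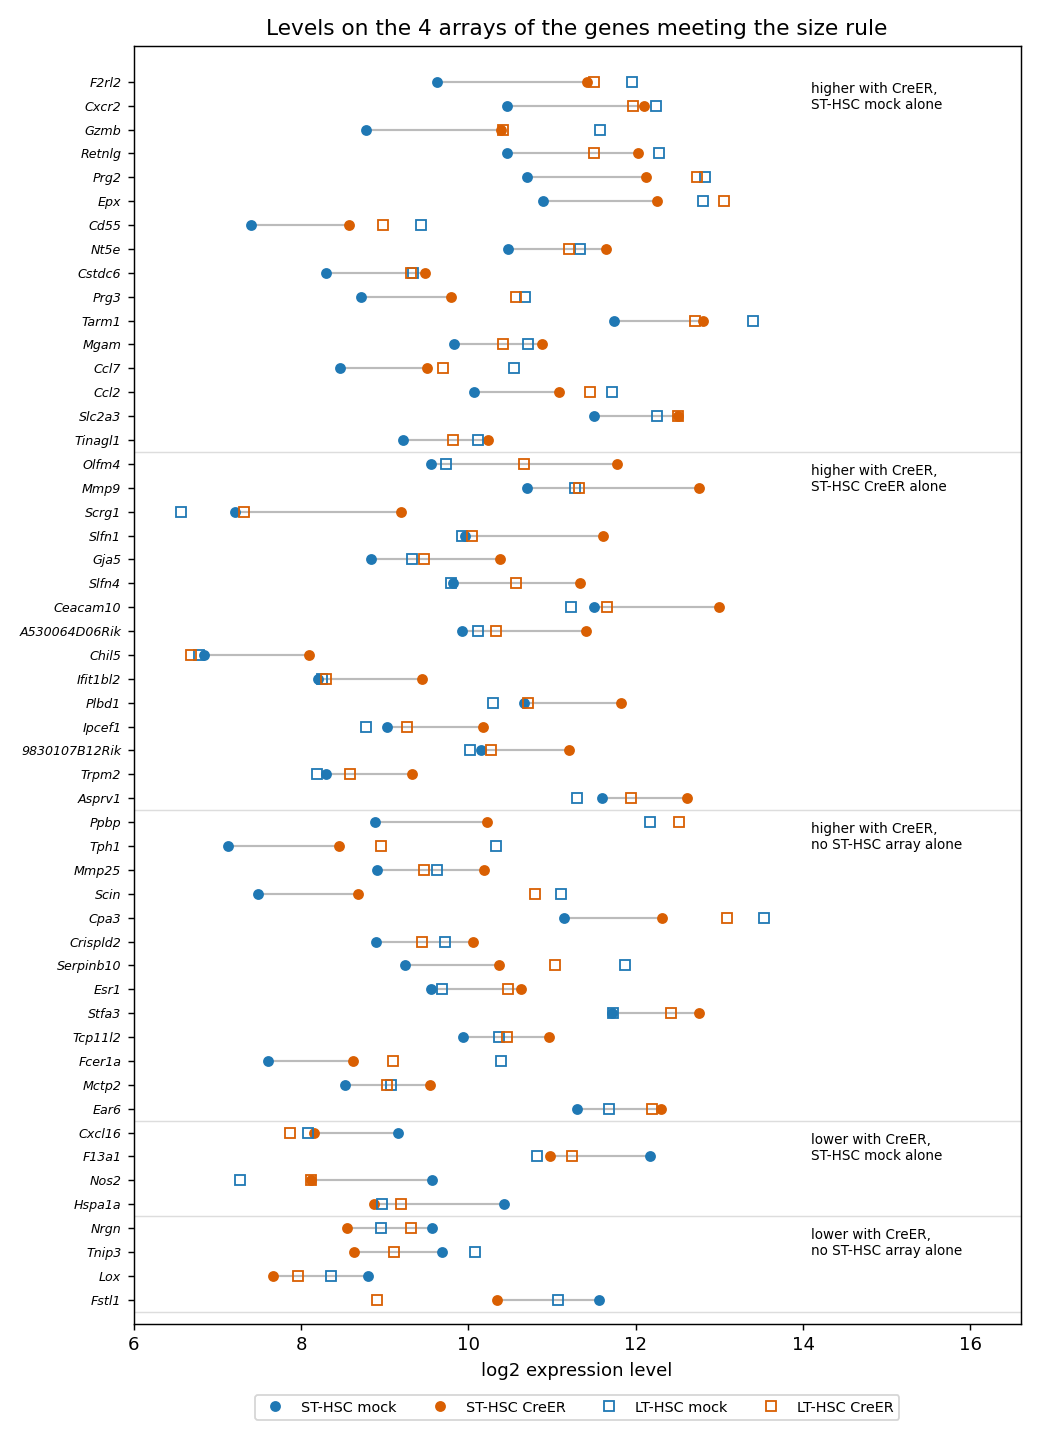
Log2 expression level of each of the 52 counted genes on the 4 arrays (x axis), grouped by direction and by the ST-HSC array that was set apart alone; filled circles are ST-HSC arrays and open squares LT-HSC arrays. In the upper block of 16 genes the filled blue point of ST-HSC mock lies left of the other 3, and in the next block of 15 the filled orange point of ST-HSC CreER lies right of them.

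The genes set apart by the mock array included the late neutrophil genes Cxcr2 and Retnlg and the eosinophil granule genes Prg2, Epx and Prg3. Of the other counted late neutrophil genes, Mmp9 and Asprv1 were set apart by the CreER array, and Mmp25 and Stfa3 by neither. Cxcr2, the chemokine receptor of mature neutrophils, stood at 10.46 on ST-HSC mock and at 12.10, 12.25 and 11.97 on ST-HSC CreER, LT-HSC mock and LT-HSC CreER. The 3 higher arrays lay within 0.27 of each other and the mock array 1.51 below them. Retnlg, a resistin-like gene of neutrophils whose upstream sequence is given above, was 10.47 on ST-HSC mock and 12.03, 12.28 and 11.50 on those arrays in the same order. For both genes the ST-HSC CreER value fell between the LT-HSC values, and the ST-HSC mock value lay below both.

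Other genes placed this way were Cstdc6, a stefin-type protease inhibitor, and Tarm1, an activating receptor of myeloid cells. Cstdc6 was 8.30 on ST-HSC mock and between 9.31 and 9.48 elsewhere. Tarm1 was 11.74 on ST-HSC mock and 12.80 on ST-HSC CreER, with LT-HSC mock at 13.40 and LT-HSC CreER at 12.71. Mgam, the starch-digesting enzyme maltase-glucoamylase, was 9.83 on ST-HSC mock against 10.41 to 10.88 elsewhere, a placing lost when each array was centred on its median. Slc2a3, which encodes the glucose transporter GLUT3, was 11.50 against 12.26 to 12.51.

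Eosinophil granule proteins are cationic toxins stored for defence against parasites. Prg2, which encodes major basic protein, was 10.70 on ST-HSC mock, 12.12 on ST-HSC CreER, with LT-HSC mock at 12.82 and LT-HSC CreER at 12.73. Epx, eosinophil peroxidase, was 10.89, 12.25, 12.81 and 13.06 on the same arrays, and Prg3, a relative of Prg2, was 8.71, 9.80, 10.68 and 10.57. In all 3 the CreER array lay between the mock array and the LT-HSC arrays. Ear6, a ribonuclease of the eosinophil-associated family, was 11.30, 12.30, 11.69 and 12.19, so here ST-HSC CreER was the highest and no array stood alone. The Ear ribonucleases are near-identical copies, and the signal named Ear6 may include its relatives. These 4 genes are the list's members past the floor, and since a gene that is low on 1 array passes through the other, they do not speak for the list. Of the 7 measured members, 6 were above 0 with a median of 1.004. The other 3 stayed under the floor on both ST-HSC arrays, with Rnase2a at 0.09, Rnase2b at 0.15 and Ear14 at -0.56.

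Eosinophil receptor genes held no counted member. Siglecf, a sialic acid-binding receptor, was 9.30 with mock and 9.50 with CreER, while Il5ra and Ccr3, the receptors for interleukin-5 and eotaxin, stood at 6.07 and 6.37 and at 6.26 and 6.22, under the floor. Over the 13 measured members the median was -0.05, with 5 above 0. Over all 19938 genes the median was -0.01, with 46.2% above 0.

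The other genes set apart by the mock array had varied roles. F2rl2, which encodes the thrombin receptor family member PAR3, was 9.62 on ST-HSC mock and 11.42, 11.95 and 11.50 on ST-HSC CreER, LT-HSC mock and LT-HSC CreER, with a gap of 1.80. Gzmb, granzyme B, was 8.77, 10.39, 11.57 and 10.41 in the same order, starting with ST-HSC mock. Ccl2 and Ccl7, chemokines that attract monocytes, were higher with CreER by 1.01 and 1.04, although both remained under the LT-HSC levels. Cd55, a complement regulator, was higher by 1.18 from a mock level under the floor, so the size of its difference is uncertain. Nt5e, the nucleotidase CD73, was also higher by 1.18. Tinagl1, a matrix protein gene, was higher by 1.005, just past the threshold. In LT-HSC-derived cells 14 of these 16 genes differed downwards with CreER, with a median of -0.29. The exceptions were Epx and Slc2a3, at 0.25 each. Over all 19938 genes, floor or not, 8164 were below 0 there, at a median of 0.04. Genes past the floor in ST-HSC, as these 16 are, had a median of -0.02 there. The LT-HSC arrays entered the placing of these 16 genes too, so their count and median are given as a description.

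The 4 counted mast cell and basophil genes, Gzmb among them, had 1 order of arrays: ST-HSC mock lowest, ST-HSC CreER next, and the LT-HSC arrays above both. The lists as a whole did not share it: ST-HSC mock was the lowest array for 3 of 4 proteases, 6 of 9 receptors, 5 of 14 mediators and 1 of 8 transcription factors past the floor, and ST-HSC CreER was the lowest for 1, 2, 6 and 3 of them. Cpa3, the mast cell carboxypeptidase, was 11.15 on ST-HSC mock, 12.31 on ST-HSC CreER, with LT-HSC mock at 13.54 and LT-HSC CreER at 13.09. Fcer1a was 7.61, 8.62, 10.39 and 9.09 on these arrays. Tph1, the enzyme that starts serotonin synthesis, was 7.13, 8.45, 10.34 and 8.95. On the ST-HSC mock array Fcer1a and Tph1 were under the floor, so the size of both differences is uncertain.

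The same order held for Ppbp, a platelet chemokine gene, at 8.88, 10.23, 12.17 and 12.52 on ST-HSC mock, ST-HSC CreER, LT-HSC mock and LT-HSC CreER. Scin, an actin-severing protein gene, was 7.48, 8.68, 11.11 and 10.79, and Serpinb10, a protease inhibitor gene, 9.24, 10.36, 11.87 and 11.03. On ST-HSC mock Scin was under the floor, so the size of its difference is uncertain. Below 2-fold, Hdc, the histamine-forming enzyme, was higher with CreER by 0.78, Ms4a2, the beta chain of the IgE receptor, by 0.71, and Slc6a4, the serotonin transporter, by 0.69. Gata2, a transcription factor of mast cells and progenitors, was 8.92 with mock and 9.41 with CreER, against 11.94 and 11.70 on the LT-HSC arrays.

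Other members had smaller differences or were lowest on ST-HSC CreER. The basophil protease gene Mcpt8 was higher by 0.21, with ST-HSC mock again the lowest array, and Prss34 differed by -0.10. The cytokine genes Il6 and Il13 differed by -0.24 and -0.26, and the cyclooxygenase gene Ptgs2 by -0.76. Of 13 measured mast cell and basophil proteases, 11 were above 0 with a median of 0.32, against 46.2% of all genes above 0. However, 9 of the 13 were under the floor on both ST-HSC arrays. Of 14 measured receptors, 9 were above 0 with a median of 0.20 and 1 was counted, and of 19 mediators 10 were above 0 with a median of 0.00 and 1 was counted. Transcription factors of the lineage had a median of -0.05 over 10.

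The neutrophil lists are described by granule stage, and differences between the lists were not tested. Of the primary granule genes, 10 of 20 measured members were above 0, the median was 0.00 and none was counted, and that median changed sign between normalizations. Mpo, the myeloperoxidase gene, was 13.55 with mock and 13.50 with CreER, Elane, neutrophil elastase, 13.92 and 13.87, and Prtn3, proteinase 3, 13.34 and 13.45. Fcnb, a ficolin, was 12.82 on both ST-HSC arrays.

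Secondary granule genes were higher with CreER for 18 of 20 measured members, against 46.2% of all genes above 0. The median was 0.30 and 2 were counted, Olfm4 and Ceacam10. Chil1, a chitinase-like glycoprotein of these granules, was 12.72 with mock and 13.36 with CreER, Cd177, a neutrophil surface glycoprotein, 12.75 and 13.34, and Orm1, an acute-phase glycoprotein, 10.55 and 11.31. Ltf, lactoferrin, was 13.68 and 14.06, and Camp, the cathelicidin gene, 13.72 and 13.92. The ST-HSC CreER array was the highest of the 4 for 16 of the 20, against 24.2% of genes past the floor.

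Genes of tertiary granules and late neutrophils were higher with CreER for 37 of 41 measured members, against 46.2% of all genes above 0. The median was 0.27 and 6 were counted: Mmp9, Cxcr2, Retnlg, Mmp25, Stfa3 and Asprv1. Mmp25, a membrane-bound metalloproteinase of neutrophils, was 8.90 with mock and 10.19 with CreER, with 9.63 and 9.47 on the LT-HSC arrays between them. Stfa3, a stefin from a family of near-identical copies, was 11.72 and 12.75. Just under 2-fold were Padi4, which converts histone arginines to citrulline (0.82), Trem1, an activating receptor (0.73), Arg2, arginase 2 (0.72), and Csf3r, the G-CSF receptor (0.60). The abundant calprotectin genes S100a8 and S100a9 were higher by 0.08 and 0.11. The members below 0 were the interleukin gene Il1b (-0.35), the lectin receptor genes Clec4d (-0.35) and Clec4e (-0.24), and the phosphatase gene Dusp1 (-0.23). Of the 40 past the floor, the mock array alone was set apart in 9 and the CreER array alone in 8. ST-HSC mock was the lowest of the 4 for 20 of them, against 15.6% of genes past the floor.

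Transcription factors of the granulocyte lineage showed smaller differences, with 8 of 16 above 0, a median of 0.01 and none counted. Cebpe, which is required for secondary granules, was 12.13 with mock and 12.41 with CreER. Klf5 was 10.31 and 10.76, and Spi1, which encodes PU.1, 13.06 and 13.16. Irf8 and Klf4, factors of monocytes, differed by -0.35 and -0.22.

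**Figure D3:**
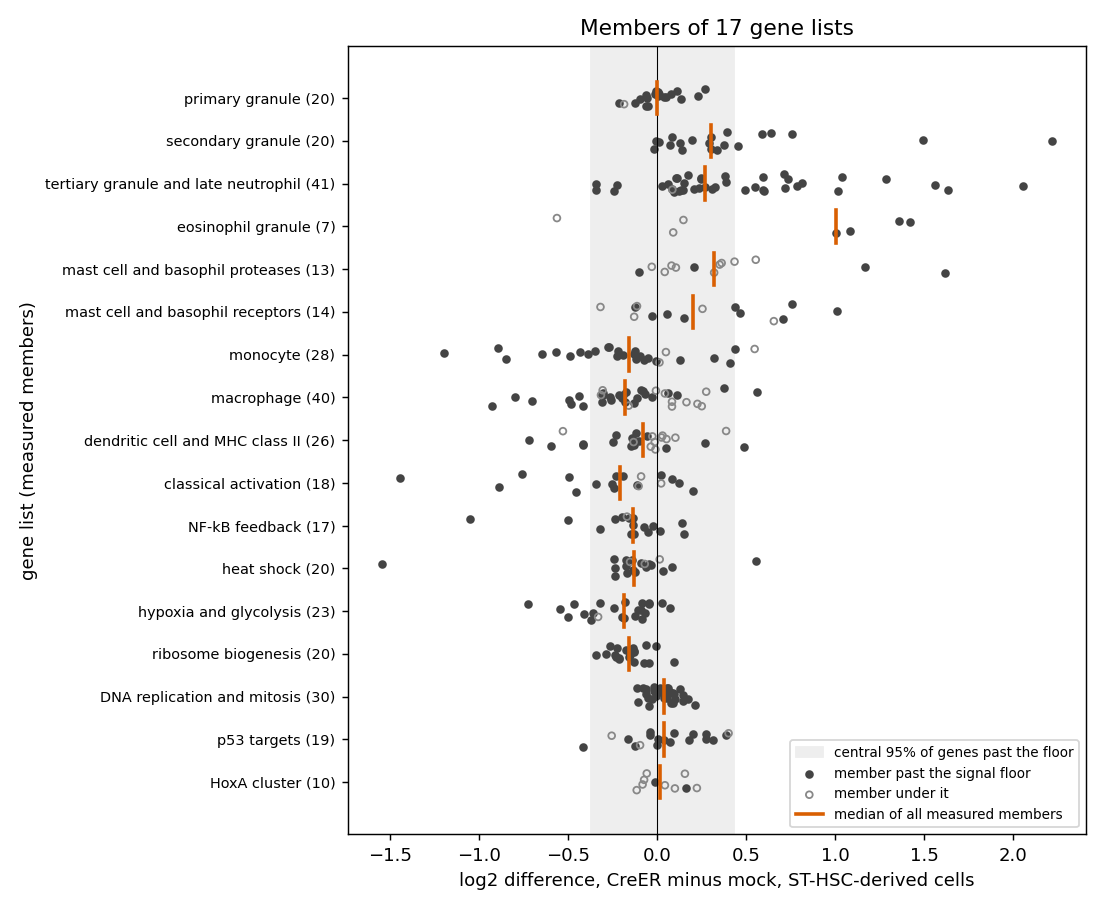
Log2 difference CreER minus mock in ST-HSC-derived cells for the measured members of 17 lists; filled points are past the signal floor, open points under it, orange bars the median of all measured members, and the grey band the central 95% of genes past the floor. Secondary and late neutrophil members lie mostly right of 0, with medians of 0.30 and 0.27, while monocyte, inflammatory, glycolysis and ribosome biogenesis members lie mostly left of it.

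Of the monocyte and macrophage genes measured, 1 met the 2-fold rule, F13a1, and most of the others lay below 0 by less. F13a1, coagulation factor XIII of monocytes, was 12.18 on ST-HSC mock and 10.98, 10.82 and 11.24 on ST-HSC CreER, LT-HSC mock and LT-HSC CreER, so the mock array alone was set apart, high. Ccr2, the receptor for Ccl2, was 11.78 on ST-HSC mock and 10.89, 10.53 and 10.40 on those arrays, also with mock alone, at a difference of -0.89. Csf1r, the M-CSF receptor, was 12.10 with mock and 11.54 with CreER, and Cd14, the endotoxin co-receptor, 11.89 and 11.24. Of 28 measured monocyte genes, 7 were above 0 and 21 below, against 46.2% of all genes above 0. The median was -0.16, smaller in size than the olfactory receptor SD of 0.20, which is a single-gene scale. Over the 25 members past the floor the median was -0.22, larger in size than that SD. ST-HSC mock was the highest of the 4 arrays for 15 of the 25 past the floor, against 28.2% of genes past the floor.

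Among macrophage genes, Fabp4, a fatty acid-binding protein, was 10.73 with mock and 9.80 with CreER. Mfge8, which bridges macrophages to dying cells, was 11.64 and 10.85, and Ctsk, cathepsin K, 10.73 and 10.03. The macrophage markers Adgre1, an adhesion receptor, Mrc1 and Cd68 differed by -0.09, -0.03 and -0.13. Of the 8 defining macrophage markers 7 were below 0 and 1 above, with a median of -0.16. Slc40a1, the iron exporter ferroportin, was higher by 0.56. Over 40 measured members the median was -0.18, with 11 above 0 (27.5%), 29 below and none counted. Dendritic cell and MHC class II genes had a median of -0.08 over 26, with Irf4 at -0.72 and Itgax (CD11c) at 0.05.

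Genes of inflammatory activation made up part of the 8 lower genes. Nos2, inducible nitric oxide synthase, was 9.56 on ST-HSC mock, 8.12 on ST-HSC CreER, with LT-HSC mock at 7.27 and LT-HSC CreER at 8.12, a 2.72-fold difference set apart by the mock array. Tnip3, an inhibitor of NF-kB signalling, was 9.68, 8.63, 10.07 and 9.11 on these arrays, so the CreER array was the lowest and ST-HSC mock lay between the LT-HSC arrays. Cxcl16, a scavenger receptor and chemokine gene, was 9.16 on ST-HSC mock and between 7.86 and 8.15 elsewhere.

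Of 18 measured genes of classical activation, 13 were below 0, with a median of -0.21 and 1 counted. That median was just larger in size than the olfactory receptor SD of 0.20. Saa3, an acute-phase protein gene, differed by -0.89, Acod1, the itaconate-forming enzyme, by -0.49 and Tnf by 0.02. Of 17 measured NF-kB feedback genes 14 were below 0, against 10703 of all 19938 genes. Among them were Tnfaip3, which encodes A20, at -0.50 and Nfkb2 at -0.32. The NF-kB feedback median was -0.14, smaller in size than the olfactory receptor SD, which does not measure the spread of a median. ST-HSC CreER was the lowest of the 4 arrays for 10 of the 16 past the floor, against 24.6% of genes past the floor. Of 17 measured genes of alternative activation 13 were below 0 and 4 above (23.5%, against 46.2% of all genes), and none was counted. Their median was -0.15, smaller in size than the olfactory receptor SD of 0.20, which is a single-gene scale. Arginase 1 (Arg1) differed by -0.91 and Bhlhe41 by -0.72.

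Hspa1a, the inducible chaperone HSP70, had the largest difference towards mock. It was 10.42 on ST-HSC mock and 8.87, 8.96 and 9.19 on ST-HSC CreER, LT-HSC mock and LT-HSC CreER, a gap of 1.23 against a range of 0.32. Its copy Hspa1b is nearly identical, so a probe set can read both. Other heat shock genes differed far less: Bag3, an HSP70 co-chaperone induced with it, by -0.24, Hsph1 by -0.17, Dnajb1 by 0.08 and Hspa8, the constitutive relative, by -0.05. Of 20 measured members 16 were below 0, against 10703 of all 19938 genes, and Hspa2 went the other way at 0.56. The median was -0.13, smaller in size than the olfactory receptor SD of 0.20, which is a single-gene scale and not the spread of a median.

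The other genes at least 2-fold lower were Fstl1, Lox and Nrgn. Fstl1, a secreted follistatin-like glycoprotein gene, was 11.56 on ST-HSC mock, 10.34 on ST-HSC CreER, with LT-HSC mock at 11.07 and LT-HSC CreER at 8.90, so both CreER arrays lay below both mock arrays. Lox, a collagen crosslinking enzyme gene, was 8.79, 7.66, 8.35 and 7.96, with the same separation but under the floor on both CreER arrays. Nrgn, a calmodulin-binding protein gene, was 9.56, 8.55, 8.95 and 9.32. Fibronectin (Fn1) differed by -0.85, while the collagen genes Col1a1, Col1a2 and Col3a1 differed by 0.04, -0.02 and -0.08. The median of the 18 measured fibroblast and stromal genes was -0.02, and 2 were counted, Fstl1 and Lox.

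The genes tied to the transgenes showed the following. Esr1, the oestrogen receptor gene, was 9.56 on ST-HSC mock and 10.63 on ST-HSC CreER, with 9.69 and 10.48 on the matching LT-HSC arrays, so both CreER arrays were above both mock arrays. Whether its probe set reads the transgene as well was not tested. Of 13 measured oestrogen receptor targets including Esr1 itself, 6 were above 0 and Esr1 was the 1 counted. Kmt2a was 10.43 with mock and 10.53 with CreER and Mllt1 10.57 and 10.52, and neither checks for the fusion, since a probe set can lie outside it.

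HoxA genes and their partners differed little. Hoxa9 was 8.02 with mock and 8.18 with CreER, against 7.79 and 9.04 on the LT-HSC arrays, and Hoxa10 was 7.21 and 7.43, under the floor. Over the 10 measured HoxA genes the median was 0.01, with values from -0.11 to 0.22. Meis1, a HOX partner, was 7.10 with mock and 7.59 with CreER, under the floor on both. Of 23 measured genes of the MLL fusion list 13 were above 0 and none was counted, at a median of 0.05. Cd34 differed by 0.73, from a mock level under the floor, and Kit by 0.15.

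Growth programmes gave differences under 2-fold. Genes of ribosome biogenesis were lower with CreER for 19 of 20, against 10703 of all 19938 genes below 0. Their median was -0.16, smaller in size than the olfactory receptor SD of 0.20. That SD is a single-gene scale and does not measure the spread of a median over 20 genes. Values ran from -0.35 to 0.10, and none was counted. Npm1, nucleophosmin, was 11.36 with mock and 11.13 with CreER, Fbl, fibrillarin, 10.04 and 9.83, and Utp20, a processing factor, 9.49 and 9.15. The exception was Ncl, nucleolin, at 0.10. ST-HSC CreER was the lowest of the 4 arrays for 19 of the 20, against 24.6% of genes past the floor. The median lay between -0.16 and -0.14 in the 3 other normalizations tried.

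Genes of hypoxia and glycolysis were lower with CreER for 21 of 23, against 10703 of all 19938 genes below 0. Their median was -0.19, just smaller in size than the olfactory receptor SD of 0.20, which is a single-gene scale and not the spread of a median. Vegfa, the vascular growth factor, was 11.05 with mock and 10.32 with CreER, and Slc2a1, which encodes the glucose transporter GLUT1, 12.83 and 12.32, in contrast to GLUT3 above. Bnip3, a mitophagy receptor gene, was 11.95 and 11.48, and Aldoc, aldolase C, 11.64 and 11.09. Ldha and Aldoa, of glycolysis, differed by -0.08 and -0.04. ST-HSC mock was the highest of the 4 arrays for 14 of the 22 past the floor, against 28.2% of genes past the floor.

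Other programmes had medians closer to the all-gene median of -0.01. DNA replication and mitosis genes had a median of 0.04 over 30, with values from -0.11 to 0.21, and in LT-HSC-derived cells the median of the same genes was 0.34. Targets of p53, the DNA damage factor, had a median of 0.04 over 19, with Mdm2 at -0.04, Ccng1 at 0.09 and Gadd45a at 0.39. Interferon-stimulated genes had a median of 0.06 over 21, cholesterol synthesis genes -0.06 over 17, and amino acid and ATF4 target genes -0.07 over 23. None of these lists had a counted member.

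Genes of cell cycle brakes, early response and stem cells were also measured. Of 7 cyclin-dependent kinase inhibitors 4 were above 0 and none was counted, at a median of 0.17; Cdkn2c was higher by 0.26 and Cdkn1b, which encodes p27, by 0.17. Immediate early genes had a median of -0.06 over 22, with the stress factor Atf3 at -0.64, Jun at -0.44 and Klf2 at 0.38, and none was counted. Stem cell genes had a median of 0.10 over 23, with Ptprc, the pan-leukocyte antigen CD45, at 0.17 and Procr, a stem cell surface receptor, at -0.16.

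Of 20 measured megakaryocyte and platelet genes 16 were past the floor and 13 above 0, with a median of 0.08 and 2 counted, F2rl2 and Ppbp; Vwf, von Willebrand factor, differed by -0.29. Erythroid genes had a median of 0.11 over 14, with 2 past the floor. B cell genes had a median of 0.07 over 13, with 3 past the floor, of which Bank1, a B cell scaffold gene, was higher by 0.85 and set apart by the CreER array. T and NK cell genes had a median of 0.05 over 16 with 4 past the floor, among them Gzmb, which is also a mast cell and basophil protease here, and Slamf7, a receptor of the SLAM family, at -0.76. Inflammatory chemokines had a median of -0.06 over 24, of which 12 were past the floor, with Ppbp, Ccl7 and Ccl2 counted as higher and Cxcl16 as lower.

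Of the counted genes in no group above, Crispld2, which encodes a secreted protein, was 8.90 with mock and 10.06 with CreER. Tcp11l2 and Mctp2 were higher by 1.02 and 1.01. In all 3 both LT-HSC values lay between those of the ST-HSC arrays.

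Of the receptors for the culture cytokines, Csf2ra, Csf2rb and Il3ra, the chains that bind GM-CSF and IL-3, differed by 0.01, -0.10 and -0.12. On the same list are receptors of cytokines that were not among those added: Csf3r was higher by 0.60, set apart by the CreER array, and Csf1r differed by -0.57. Cish, a feedback gene of STAT5 signalling, was higher by 0.42. Over the 17 measured members of the list the median was -0.03, and none was counted.

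Set beside CreER minus mock in LT-HSC-derived cells, 21 of the 44 higher genes were above 0 there and 23 below, and the 8 lower genes were 4 and 4. These 2 comparisons share no array. Over all 19938 genes, floor or not, 11756 were above 0 in LT-HSC-derived cells and 8164 below. In LT-HSC-derived cells 11 of 10172 genes were at least 2-fold higher (0.108%) and 78 lower (0.767%), together 0.875%. None of the 44 was among those higher there, and Fstl1 was the 1 lower gene shared. The genes set apart by the ST-HSC CreER array had a median of 0.40 in LT-HSC-derived cells, the higher genes set apart by the ST-HSC mock array -0.29, and the higher genes set apart by neither -0.15. For the lower genes the medians there were 0.32 over the 4 set apart by mock and -0.68 over the 4 set apart by neither. Over all genes past the floor in ST-HSC the median there was -0.02. The LT-HSC arrays entered the placing, so these medians are given as a description. The difference between the populations was not tested, since each effect rests on 1 array a side.

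**Figure D4:**
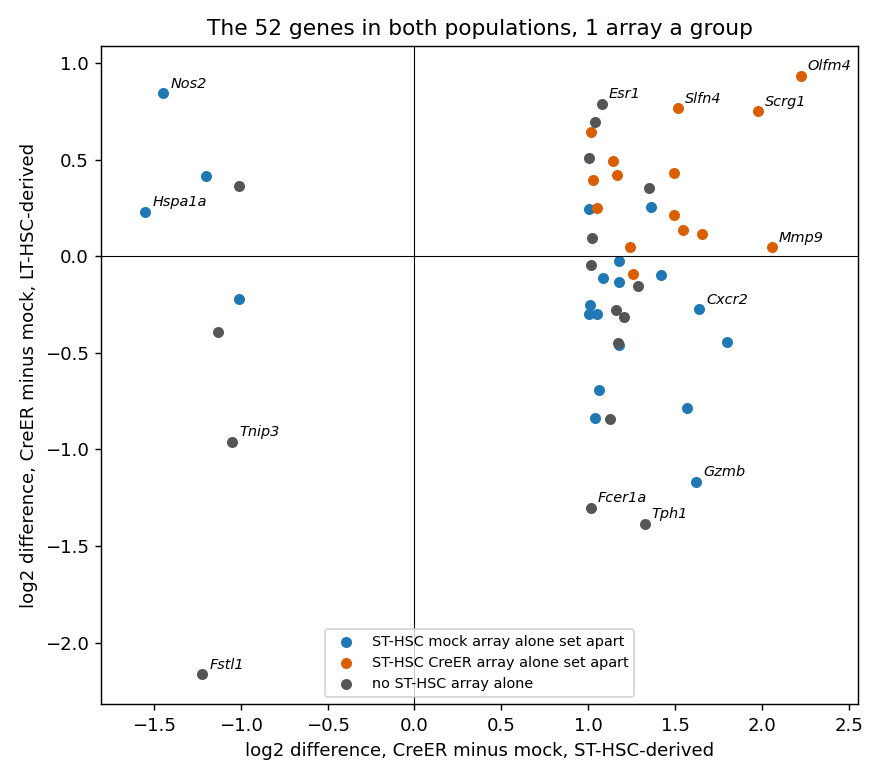
Log2 difference CreER minus mock in ST-HSC-derived cells (x axis) and in LT-HSC-derived cells (y axis) for the 52 counted genes, coloured by the ST-HSC array that was set apart alone. Orange points lie at or above 0 on the y axis apart from Chil5 at -0.09, and 14 of the 16 blue points on the right lie below it. The LT-HSC values entered the placing that sets the colours.

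At the edge of the 2-fold rule, 16 of the 44 higher genes lay within 0.1 of it, down to Ear6 at 1.004. Just outside were Myo1d at 0.997, Gpr55 at 0.995, Cacna1e at 0.995, Ankrd22 and St3gal5 at 0.98, Ctse at 0.97 and Timp2 at 0.90. On the lower side Nrgn and Cxcl16 at -1.01 were just inside, and Fabp4 at -0.93 and Arg1 at -0.91 just outside. The 3 genes at 2-fold but under the floor on both arrays were Glt28d2, Gm7457 and the olfactory receptor gene Olfr715b.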

How the data were processed

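RNA of colony-forming cells was labelled with biotin and hybridised to 4 arrays, 1 for each group. The authors deposited 1 value for each probe set, taken here as log2 expression because the values run from 2.21 to 14.82. Per the submitters' processing notes the software was Affymetrix Expression Console; version, summarisation, normalization and genome build: not given in the sources used here. Values were used as deposited. Of 35556 probe sets, 21789 had 1 gene symbol in the platform annotation, 1621 several and 12146 none. They gave 19938 genes; where a gene had several (999 genes), its probe set of highest mean level stood for it. Array summaries can compress differences near background and near saturation.

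Differences, the 2-fold count, the signal floor (50th percentile of each array) and the array set apart were computed in Python 3.11.15 with pandas 2.3.3, and other normalizations in R 4.3.3 with limma 3.58.1. Simulated data with planted differences were used to test the steps. With 1 array a group no p-value was computed. There were 38 lists with 794 entries and 650 different genes measured. The members and lists were chosen with earlier results of these data known. Named genes were up to 25 to each side by size, up to 8 members past the floor per list and direction, and a fixed set of transgene, HoxA and lineage genes, of which some are given; further list members, genes near the threshold and the printed sequences and motifs were chosen after their values were seen. Alternatives were 3 normalizations, other floors, other fold thresholds, the mean of a gene's probe sets and other gaps for the array set apart.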

Additional observations from a re-analysis of the deposited data

Results flagged for a closer look

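3 genes were at least 2-fold higher with CreER in ST-HSC-derived cells and at least 2-fold lower in LT-HSC-derived cells: Gzmb, at 1.62 and -1.17, Tph1, at 1.32 and -1.39, and Fcer1a, at 1.01 and -1.30. The difference between the populations was not tested, because each value rests on 1 array a side. In all 3 genes ST-HSC mock was the lowest of the 4 arrays and LT-HSC mock the highest.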

How the results depend on the processing

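With quantile, cyclic loess or median normalization, no signal floor or the mean of a gene's probe sets, the counts of higher and lower genes stayed within 1.5 times of 44 and 8, and 51 or 52 of the 52 genes were counted again in the same direction. Over the 3 normalizations 15 of the 16 higher genes set apart by the mock array kept that placing and 13 of the 15 set apart by the CreER array did; Olfm4 and Slfn4 lost it under quantile and cyclic loess normalization and Mgam under median centring. No counted difference changed sign in any of them. With the floor at the 75th percentile 32 genes were higher and 3 lower, of which 2 were set apart by mock and 1 by neither. At 1.5-fold 143 genes were higher (35 set apart by mock, 48 by CreER, 60 by neither) and 57 lower (12, 6 and 39). At 3-fold 7 were higher (3, 4 and 0) and 0 lower (0, 0 and 0). With a gap above 0.5 times the range, 26 higher genes were set apart by mock and 3 by neither, and of the lower ones 2 by CreER and 1 by neither. With a gap above 2 times the range the higher genes were 5, 9 and 30; Cxcr2, F2rl2, Prg2, Cstdc6 and Slc2a3 were the 5. Of 215 list medians over members past the floor, 7 moved by more than 0.20, the SD of olfactory receptor differences. That SD is a single-gene scale from genes mostly under the floor and is not a replicate error. The medians that moved include that of the eosinophil granule list, from 1.22 over members past the floor to 1.004 without a floor. The cause was not tested. No paired analysis was possible because each group held 1 array, and no array can be left out. Signal over background limits what is known of the 6 higher genes under the floor on ST-HSC mock and the 1 lower gene under it on ST-HSC CreER.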
